A study of Mus musculus with 8 samples.

Results

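The regions described here are the open chromatin regions of 55 mouse cell cycle genes, on a list that runs from the E2F transcription factors and cyclins to the genes of DNA replication and mitosis. A region was assigned to a gene when that gene was the nearest RefSeq protein-coding gene within 50 kb, and 191 of the 61196 regions fell to a listed gene. All 55 genes had at least 1 region, 20 of them had exactly 1, and the kinase gene Cdk6 had the most with 23. Of the 191 regions, 61 lay at a gene end, that is within 1 kb of either end of the gene, and 130 were distal, 55 inside a gene body and 75 outside the gene. Nearness alone does not tell on which gene a region acts, and 9 regions were equally near to a second gene, among them the gene ends of Pcna (shared with Cds2), Aurka (Cstf1), Mcm7 (Ap4m1), Cdk2 (Pmel) and Foxm1 (Rhno1).

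Chromatin accessibility was measured by ATAC-seq, in which the Tn5 transposase cuts and tags open DNA, in progenitor cells sorted from mouse bone marrow. The 8 libraries form 4 groups of 2, named cMoP, GMP-MoP, proNeu1 and proNeu2. In this field cMoP usually stands for a common monocyte progenitor and proNeu1 and proNeu2 for early neutrophil progenitors, while the series title derives GMP-MoP cells from proNeu1. The labels give no genotype, strain, treatment, age or sort gate for any group, and they call the libraries biological replicates without naming animals, so the p-values measure only the spread between these libraries, which may be technical.

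The cell cycle is driven by cyclin-dependent kinases whose cyclin partners appear and disappear in turn. D-type cyclins with Cdk4 or Cdk6 phosphorylate the retinoblastoma protein Rb1, which frees E2F factors to switch on the genes of DNA replication, and a later wave of genes for mitosis is switched on through the MuvB complexes with B-Myb and FoxM1. Early neutrophil and monocyte progenitors of the bone marrow divide actively, and their descendants stop dividing as they mature. Accessibility at a gene is not its expression.

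Each library held 1388525 to 1907810 counts over the 61196 regions. Levels are given as CPM, a region's count scaled to the library total after TMM adjustment, and 161 of the 191 cell cycle regions passed the filter on low counts, 60 at gene ends and 101 distal. The counts of calls cover these 161 regions only. The share of all counts that fell at gene ends differed between groups, with 46.6 and 43.8% in the cMoP libraries, 48.7 and 46.1% in GMP-MoP, 53.3 and 52.8% in proNeu1 and 53.8 and 53.5% in proNeu2. The 2 proNeu2 libraries differed by no more than sampling noise (chi-square per degree of freedom 1.01 over 12099 regions, against 1.30 to 1.38 in the other groups), so results were also computed with them summed as 1 sample, which called 66 cell cycle regions in proNeu1 and 85 in proNeu2 against cMoP, beside 64 and 81. Regions of 16 neutrophil markers summed to 622 to 638 CPM in cMoP, 676 to 743 in GMP-MoP, 1239 to 1332 in proNeu1 and 1482 to 1511 in proNeu2, and those of 12 monocyte and macrophage markers to 1138 to 1215, 942 to 946, 749 to 810 and 776 to 777. The markers of mast cells, erythroid cells, B cells, and T and NK cells each summed to 98.9 to 310.0 CPM in every library, and among them Cd79a, Vpreb1, Cd3e, Cd3g, Il2rb, Hba-a1 and Prss34 had no region. Regions of 10 stem cell markers summed to 1018 to 1245 CPM and those of 8 dendritic cell markers to 634 to 953, the latter highest in cMoP. The part of such cells in the results was not tested.

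Promoter sequences are shown first, because E2F and MuvB complexes act through promoters and 42 of the 61 gene-end regions lay over a listed start. RefSeq promoter windows of 300 bases on GRCm38.p6, the mm10 assembly, were at hand for 44 of the 55 genes, and 44 windows of 42 genes had their start inside an open region. Both strands were searched for the E2F motif (TTTCCCGC, TTTCGCGC, TTTGCCGC or TTTGGCGC), the cell cycle genes homology region or CHR (TTTGAA or TTCGAA), to which the MuvB complexes bind, and the CCAAT box (CCAAT), the site of NF-Y. E2F letters stood in 13 of the 44 windows (29.5%), against 4.35% of 11482 windows of all protein-coding genes with an open start. They stood in 7 of 14 windows of replication and nucleotide supply and in 1 of 10 of the mitotic regulators. CHR letters stood in 17 windows (38.6%, against 1487 of the 11482), with 8 of the 10 mitotic windows and 2 of the 14 replication windows among them. CCAAT stood in 32 windows (72.7%, against 38.1%), and CHR and CCAAT together in 36.4%, against 5.49%. A match describes the letters and not a bound site.

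The 250 bases before the start are printed for 7 genes, 5′ to 3′ on the gene's strand, with E2F and CHR letters in capitals and all else in lower case. Birc5 (chr11:117848987-117849236, plus strand), Cdt1 (chr8:122567765-122568014, plus strand) and Ccnb1 (chr13:100786487-100786736, minus strand) are the named gene ends of small adjusted p whose window lies before the gene and not inside it. E2f3 (chr13:29986064-29986313, minus strand) and Cdk2 (chr10:128705052-128705301, minus strand) carry E2F letters, and Top2a (chr11:99024190-99024439, minus strand) and Mcm2 (chr6:88898781-88899030, minus strand) carry CHR letters. These last 4 were chosen after their values and matches were seen.
Birc5: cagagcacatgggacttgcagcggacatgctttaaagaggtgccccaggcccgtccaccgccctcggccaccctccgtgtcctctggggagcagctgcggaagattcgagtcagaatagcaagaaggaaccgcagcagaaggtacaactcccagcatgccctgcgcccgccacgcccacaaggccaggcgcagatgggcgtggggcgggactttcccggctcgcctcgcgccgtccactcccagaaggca
Cdt1: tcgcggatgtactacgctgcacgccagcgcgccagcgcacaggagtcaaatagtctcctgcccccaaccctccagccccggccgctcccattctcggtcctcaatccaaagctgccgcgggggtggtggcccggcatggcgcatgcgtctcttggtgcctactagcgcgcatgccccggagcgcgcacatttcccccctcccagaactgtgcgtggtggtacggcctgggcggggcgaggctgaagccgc
Ccnb1: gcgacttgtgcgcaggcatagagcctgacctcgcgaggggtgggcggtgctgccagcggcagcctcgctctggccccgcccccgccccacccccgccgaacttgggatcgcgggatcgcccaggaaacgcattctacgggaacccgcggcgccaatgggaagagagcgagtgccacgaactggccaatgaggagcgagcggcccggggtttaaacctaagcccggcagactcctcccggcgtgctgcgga
E2f3: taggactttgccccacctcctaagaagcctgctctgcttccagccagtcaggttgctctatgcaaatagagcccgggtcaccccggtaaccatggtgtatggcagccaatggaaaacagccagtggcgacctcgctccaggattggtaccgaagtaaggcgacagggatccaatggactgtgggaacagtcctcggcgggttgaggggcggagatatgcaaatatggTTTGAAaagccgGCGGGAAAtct
Cdk2: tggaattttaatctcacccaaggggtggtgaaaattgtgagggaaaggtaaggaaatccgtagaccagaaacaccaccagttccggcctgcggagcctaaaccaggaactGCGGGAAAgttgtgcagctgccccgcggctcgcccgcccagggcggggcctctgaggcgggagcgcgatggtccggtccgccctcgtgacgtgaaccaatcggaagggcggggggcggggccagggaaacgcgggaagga
Top2a: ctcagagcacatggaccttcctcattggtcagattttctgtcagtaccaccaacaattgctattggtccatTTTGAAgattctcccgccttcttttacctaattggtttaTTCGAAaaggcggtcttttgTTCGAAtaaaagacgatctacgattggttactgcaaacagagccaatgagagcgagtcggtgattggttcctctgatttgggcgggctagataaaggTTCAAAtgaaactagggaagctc
Mcm2: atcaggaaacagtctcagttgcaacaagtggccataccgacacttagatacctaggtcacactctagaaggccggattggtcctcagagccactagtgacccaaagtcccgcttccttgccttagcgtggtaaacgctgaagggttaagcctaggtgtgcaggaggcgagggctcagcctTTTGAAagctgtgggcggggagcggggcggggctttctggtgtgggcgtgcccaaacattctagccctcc
In E2f3 the E2F letters GCGGGAAA lie 11 to 4 bases before the start and the CHR letters TTTGAA 23 to 18 bases before it. Cdt1 has E2F letters, TTTGGCGC, after its start and so outside the printed bases. Cdk2 holds the E2F letters of E2f3 140 to 133 bases before its start. Top2a, the gene of DNA topoisomerase II alpha, holds 4 CHR matches and 6 CCAAT boxes on either strand, the nearest CHR match 23 to 18 bases before the start. Mcm2 holds TTTGAA 70 to 65 bases before the start. Ccnb1 holds 2 CCAAT boxes and none of the E2F or CHR letters searched, and in Birc5 no letters of the 3 motifs are found in the window. Variants of these letters were not searched. For proNeu2 minus cMoP the median log2 difference of the open region was 0.44 at the 13 cell cycle windows with E2F letters and 0.43 at the 31 without, and 0.44 at the 17 with CHR letters and 0.42 at the 27 without. For proNeu1 minus cMoP the medians were 0.29 with and 0.37 without E2F letters, and 0.40 with and 0.31 without CHR letters. Over the open starts of all protein-coding genes, in proNeu2 they were 0.44 with and 0.35 without E2F letters, and 0.35 with and 0.36 without CHR letters. No difference between these medians was tested.

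The first comparisons set proNeu1 and proNeu2 against cMoP. With TMM scaling, the called gene ends of cell cycle genes were nearly all higher in the proNeu groups, as was the larger part of the called gene ends of all genes, and distal regions of the same genes went both ways. In proNeu1 the share of cell cycle gene ends that were higher was close to that of all gene ends, and with loess offsets the median differences were near 0. Of the 60 gene-end regions, 22 had a higher level in proNeu1 and 0 a lower one, with a median log2 difference of 0.34. Of all gene-end regions tested, 33.1% were higher and 8.41% lower, with a median of 0.28. In proNeu2, 33 were higher and 1 lower with a median of 0.42, against 40.3% higher and 13.6% lower and a median of 0.32 over all gene ends. The shares of cell cycle gene ends that were higher, 36.7 and 55.0%, are read against those 33.1 and 40.3%. The cell cycle gene ends had a median of 58.0 CPM, beside 34.1 over all tested gene ends, so their calls rested on more counts. The part of this level in the shares was not tested. At an unadjusted p under 0.05 no cell cycle gene end was lower in proNeu1 either, beside 1256 of all 12016 gene ends, and none was with DESeq2.

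The number of calls and the size of the differences at gene ends rested on the scaling, and at some named gene ends the direction did too. With loess offsets, which let the scaling vary with a region's level, 7 gene ends were higher and 3 lower in proNeu1 (median log2 0.01), beside 16.5 and 11.7% of all gene ends, and 15 were higher and 3 lower in proNeu2 (median 0.07), beside 25.9 and 18.1%. Scaling to total counts gave 15 and 0 in proNeu1 and 20 and 1 in proNeu2, and the DESeq2 test gave 3 and 0, and 15 and 1. Total counts also moved the median log2 difference of all tested regions, by -0.103 in proNeu1 and -0.126 in proNeu2. Shares of all gene ends with either setting are not given here, so the drop is not read as particular to cell cycle genes. Without cMoP replicate 2, the library with the lowest share of counts at gene ends, 35 instead of 64 of all cell cycle regions were called between proNeu1 and cMoP. The part of the gene-end share in these counts was not tested. In bulk samples, more cells with an open region and a more open region in each cell cannot be told apart.

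**Figure D1:**
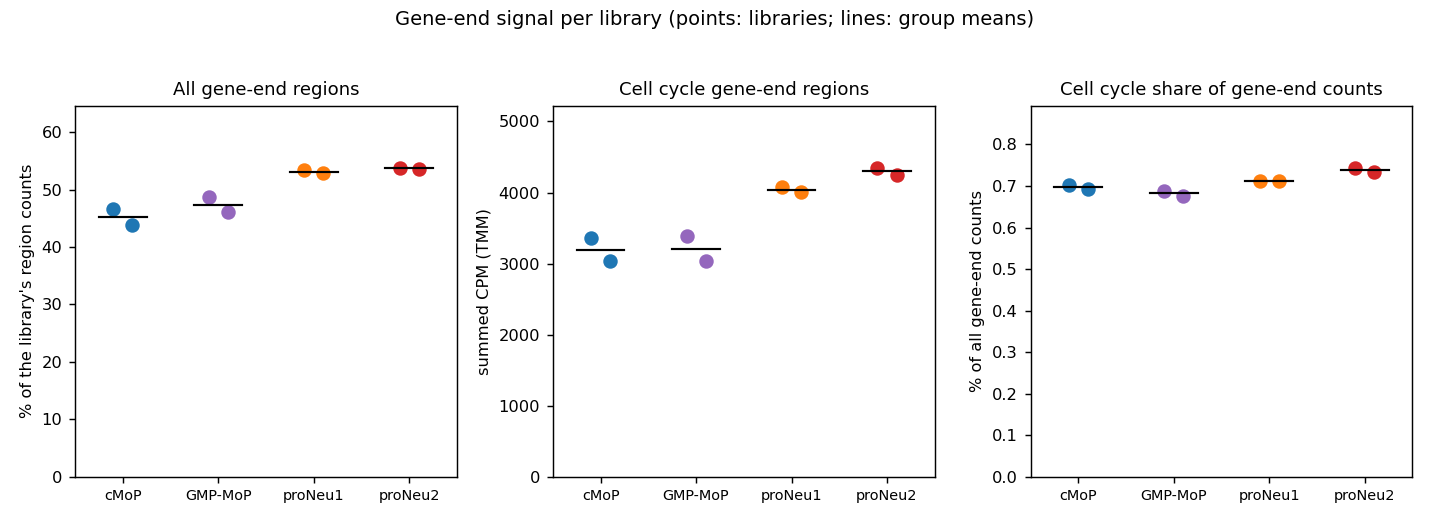
Gene-end signal in each of the 8 libraries, grouped on the x axis: the percent of all region counts at gene ends (left), the summed CPM of the cell cycle gene ends (middle) and their percent of all gene-end counts (right), with points for libraries and lines for group means. The summed level runs from 3031 to 3383 CPM in the cMoP and GMP-MoP libraries and from 4003 to 4351 in the proNeu libraries, and the left panel moves with it, while the right panel spans 0.676 to 0.744%.

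The plot of gene-end signal gives these sums: the cell cycle gene ends came to 3356 and 3038 CPM in cMoP, 3383 and 3031 in GMP-MoP, 4079 and 4003 in proNeu1 and 4351 and 4247 in proNeu2. Their part of all gene-end counts was 0.701 and 0.693%, 0.689 and 0.676%, 0.712 and 0.711%, and 0.744 and 0.733% in the same order. On this second scale the proNeu2 libraries were the highest and the GMP-MoP libraries the lowest, and no groups overlapped.

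Distal regions were mixed. In proNeu1, 18 of 101 were higher than in cMoP and 24 lower, beside 16.3 and 26.4% of all distal regions, those over 50 kb from a gene included, and in proNeu2 26 were higher and 21 lower, beside 20.2 and 32.1%. Scaling to total counts turned the second split to 19 higher and 25 lower. It moved the median log2 difference of all tested regions by -0.126 too, and shares of all distal regions with that scaling are not given here. Inside gene bodies 12 of 40 were higher and 5 lower in proNeu1, beside 17.7 and 25.4% of all regions in gene bodies, and outside genes 6 of 61 were higher and 19 lower, beside 15.9 and 24.1%. In proNeu2 the counts were 16 and 6 in gene bodies, beside 21.7 and 30.8%, and 10 and 15 outside genes, beside 20.4 and 28.9%. Ccnd3 alone gave 5 of the 12 gene-body regions that were higher in proNeu1 and 7 of the 16 in proNeu2. Regions of the same gene are not independent members of the set. The smallest adjusted p-values of the set belonged to 2 distal regions, near Stmn1 and Cenpe. A difference among any of the 4 groups was called at 33 of 60 gene ends (55.0%, against 53.4% of all gene ends) and at 46 of 101 distal regions (45.5%, against 52.1%). Distal regions had a median of 10.7 CPM and gene ends one of 58.0, so distal folds rested on fewer counts.

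**Figure D2:**
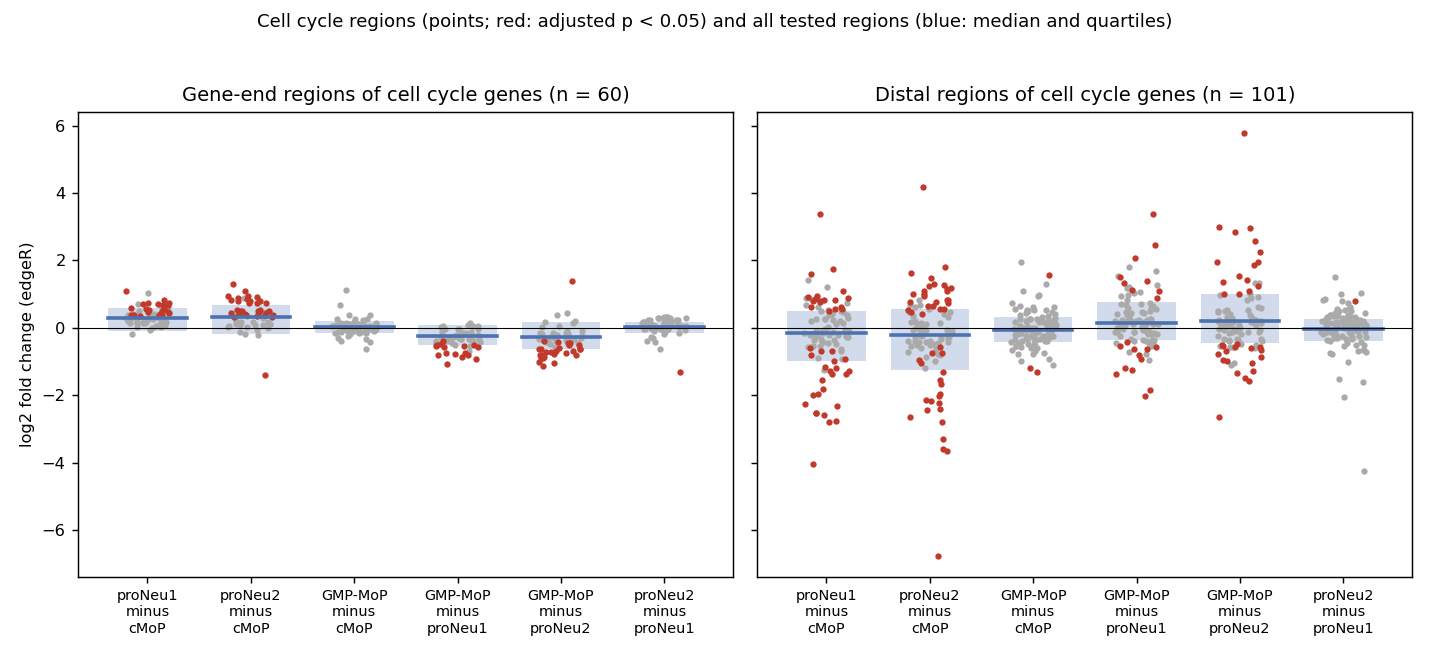
Log2 fold changes (y axis) of the tested cell cycle regions in the 6 pairs of groups (x axis), with 60 gene-end regions on the left and 101 distal regions on the right; red points have an adjusted p under 0.05, and the blue line and band give the median and quartiles of all tested regions of the class. Gene ends gather above 0 in both proNeu groups against cMoP (medians 0.34 and 0.42, but 0.01 and 0.07 with loess offsets), and distal regions scatter to both sides.

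Among the genes of transcription control, the E2F activator gene E2f2 gained accessibility in both proNeu groups, while E2f3, the gene of another activator, lost it at 2 distal regions. Of 14 gene ends in this role 4 were higher in proNeu1 than in cMoP and 7 in proNeu2, with none lower. Counts by role stand beside the 33.1 and 40.3% of all gene ends that were higher in proNeu1 and proNeu2. With so few regions in a role, they are not read as differing from those shares. A region in the E2f2 body (chr4:136177292-136178497, 2285 bp from a listed start) had 29.6 and 25.3 CPM in cMoP, 23.2 and 18.1 in GMP-MoP, 47.5 and 49.5 in proNeu1 and 60.8 and 60.4 in proNeu2. Every proNeu library lay above every cMoP and GMP-MoP library. By edgeR's quasi-likelihood test with Benjamini-Hochberg adjusted p, as throughout, it rose in proNeu1 (log2 0.82, SE 0.208, adjusted p = 0.000540) and in proNeu2 (log2 1.14, SE 0.196, adjusted p = 1.53e-07). All 6 regions at E2f2 were tested, and 4 were higher in each proNeu group and none lower.

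E2f3 was mixed away from its start. The region 16783 bp outside the gene (chr13:30002847-30003864) had 27.4 and 24.3 CPM in cMoP, 19.6 and 18.1 in GMP-MoP, 7.08 and 6.10 in proNeu1 and 3.65 and 5.97 in proNeu2. The 4 groups did not overlap, and the level fell in proNeu1 (log2 -1.96, SE 0.339, adjusted p = 3.13e-07) and in proNeu2 (log2 -2.42, SE 0.356, adjusted p = 9.80e-10) against cMoP. A region in the gene body (chr13:29978797-29979906) had 19.9 and 17.9, 10.9 and 11.3, 9.92 and 6.78, and 3.65 and 4.65 CPM in the same order of groups and fell in proNeu2 (log2 -2.18, SE 0.397, adjusted p = 7.51e-07). The gene end that holds the printed promoter (chr13:29985689-29986752), named after its values were seen, had 108 and 108, 123 and 108, 134 and 125, and 140.5 and 143 CPM. It was higher in proNeu2 than in cMoP (log2 0.39, SE 0.132, adjusted p = 0.00807), a call that ended with DESeq2 (0.0818), total counts (0.0518) and loess offsets (0.694). The third called distal region of E2f3 (chr13:30034440-30035057), also named after its values were seen, had 1.61 and 4.22, 7.99 and 5.10, 5.67 and 8.14, and 7.30 and 7.30 CPM and was higher in proNeu2 (log2 1.29, SE 0.539, adjusted p = 0.0340). That call ended with DESeq2 (0.203), with total counts (0.0606) and without cMoP replicate 1 (0.263), proNeu2 replicate 1 (0.0910) or proNeu2 replicate 2 (0.0771).

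The gene end of E2f1, another activator (chr2:154568898-154570536), had 91.9 and 82.3 CPM in cMoP, 76.97 and 66.3 in GMP-MoP, 115 and 122 in proNeu1 and 120.4 and 124 in proNeu2. Both GMP-MoP libraries were the lowest of all, and GMP-MoP was lower than proNeu1 (log2 -0.74, SE 0.151, adjusted p = 6.05e-05) and proNeu2 (log2 -0.78, SE 0.149, adjusted p = 5.70e-06). Against cMoP the higher level in proNeu2 (log2 0.49, SE 0.140, adjusted p = 0.00167) ended with loess offsets (0.703).

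The genes of the repressors E2F7 and E2F8 differed at an end too. The E2f7 region 429 bp beyond the far end of the gene and 42374 bp from the nearest listed start (chr10:110787813-110789079) had 11.8 and 12.7, 15.2 and 23.2, 28.3 and 23.7, and 28.0 and 33.2 CPM, and it rose in proNeu2 against cMoP (log2 1.31, SE 0.270, adjusted p = 1.13e-05). No cMoP library reached any other library there. E2f8 had the most open gene end of the role (chr7:48880577-48882890), with 145 and 130.4, 142 and 138, 156 and 155, and 195 and 169 CPM. Its higher level in proNeu2 (log2 0.40, SE 0.124, adjusted p = 0.00340) turned to log2 -0.06 with loess offsets and ended without proNeu2 replicate 1 (0.0755).

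Rb1, whose protein holds E2F in check, had a gene end (chr14:73324417-73326593) with 53.8 and 47.5 CPM in cMoP, 55.2 and 55.0 in GMP-MoP, 73.7 and 61.0 in proNeu1 and 63.2 and 75.7 in proNeu2. It was higher in proNeu2 than in cMoP (log2 0.45, SE 0.170, adjusted p = 0.0181), a call that ended with DESeq2 (0.159), with total counts (0.0797), with loess offsets (0.683) and without cMoP replicate 2 (0.0985) or proNeu2 replicate 2 (0.150). A region 7811 bp outside Rb1 (chr14:73333762-73334541) had 9.68 and 10.6, 10.2 and 6.24, 2.12 and 0.678, and 1.22 and 0.664 CPM. It fell in proNeu1 (log2 -2.80, SE 0.628, adjusted p = 8.17e-05), and with 38 counts in cMoP and 3 in proNeu2 the ratio of those groups was 10.4, with a 95% exact counting interval of 3.31 to 52.8. The GMP-MoP libraries overlapped those of cMoP at this region. No tested region of E2f4, the Rb1 relative Rbl2 or the mitotic activator gene Foxm1 passed in any pair.

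The G1 cyclins and kinases differed gene by gene: the D-type cyclin genes Ccnd1 and Ccnd3 moved in opposite directions, and the Ccnd2 gene end was low in proNeu2. At gene ends of this role 1 of 6 was higher in proNeu1, and 2 were higher and 1 lower in proNeu2 (all gene ends, 33.1 and 40.3% higher). Of 8 tested Ccnd3 regions, which all lay inside the gene, 5 were higher in proNeu1 and 7 in proNeu2 than in cMoP. The one with the smallest adjusted p (chr17:47511034-47511847, 5983 bp into the gene) had 28.0 and 30.6 CPM in cMoP, 28.3 and 24.4 in GMP-MoP, 42.5 and 57.0 in proNeu1 and 57.2 and 69.0 in proNeu2. All 4 proNeu libraries lay above the others. It rose in proNeu2 (log2 1.10, SE 0.193, adjusted p = 2.64e-07), and GMP-MoP was lower than proNeu2 (log2 -1.26, SE 0.206, adjusted p = 9.99e-08). The most open Ccnd3 region (from chr17:47592943) lay over a listed start, yet counts as distal, since it is over 1 kb from either end of the gene. It was higher in proNeu1 (log2 0.55, SE 0.201, adjusted p = 0.0195) and proNeu2 (log2 0.66, SE 0.195, adjusted p = 0.00254). Its proNeu1 call ended with DESeq2 (0.247), total counts (0.0568) and loess offsets (0.254). That in proNeu2 ended with DESeq2 (0.0904) and loess offsets (0.0963).

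Ccnd1 had no region at a gene end, and of its 7 tested regions 3 were lower in proNeu1 and 4 in proNeu2 than in cMoP, with none higher. The region 41679 bp outside the gene (chr7:144981510-144982232) had 19.4 and 18.5 CPM in cMoP, 9.44 and 7.37 in GMP-MoP, 2.12 and 4.07 in proNeu1 and 3.65 and 3.32 in proNeu2. Its level fell in proNeu1 (log2 -2.57, SE 0.438, adjusted p = 2.06e-07) and in proNeu2 (log2 -2.41, SE 0.416, adjusted p = 1.63e-07), and both GMP-MoP libraries lay between cMoP and the proNeu libraries. The most open Ccnd1 region, in the gene body (chr7:144937255-144938172), had 18.8 and 24.3, 21.1 and 9.64, 12.7 and 14.9, and 15.8 and 16.6 CPM, and no pair passed there.

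At the Ccnd2 gene end (chr6:127152088-127153028) the libraries of 3 groups lay within 31.9 to 34.9 CPM, and those of proNeu2 were lower. The region had 33.3 and 34.8 CPM in cMoP, 34.9 and 33.4 in GMP-MoP, 33.3 and 31.9 in proNeu1 and 14.0 and 11.9 in proNeu2. Its level in proNeu2 fell against cMoP (log2 -1.38, SE 0.261, adjusted p = 1.61e-06), the single cell cycle gene end that was lower there. Against proNeu1 it was lower too (log2 -1.32, SE 0.275, adjusted p = 0.0171), a call that ended with DESeq2 (1.00) and without proNeu1 replicate 1 (0.146), proNeu1 replicate 2 (0.0756), proNeu2 replicate 1 (0.214) or proNeu2 replicate 2 (0.280). The most open Ccnd2 region, in the gene body (chr6:127141844-127143823), had 36.0 and 35.9, 39.2 and 42.0, 49.6 and 46.8, and 42.0 and 55.1 CPM and passed in no pair.

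Cdk6, a kinase partner of the D-type cyclins, had 17 tested regions, of which 3 were higher and 4 lower in proNeu2 than in cMoP. In the gene body, the region at chr5:3430393-3430917 had 8.06 and 8.45 CPM in cMoP, 5.08 and 3.40 in GMP-MoP, 0.708 and 2.03 in proNeu1 and 0 and 0 in proNeu2. With no count in proNeu2, set at a floor of 3 counts for the group, it was at least 8.67-fold lower there than in cMoP (adjusted p = 7.88e-07). The most open Cdk6 region (chr5:3497158-3498318) had 37.1 and 44.9, 43.6 and 51.0, 39.0 and 49.5, and 49.9 and 39.8 CPM, and all groups overlapped. Cdk4, the gene of the sister kinase, had 76.3 and 73.4, 78.4 and 68.6, 74.4 and 76.6, and 91.2 and 77.7 CPM at its gene end (chr10:127062911-127064140) and passed in no pair.

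For the step into S phase, the gene end of the E-type cyclin Ccne1 (chr7:38107081-38108464) had 91.9 and 88.7 CPM in cMoP, 102 and 98.6 in GMP-MoP, 118 and 105 in proNeu1 and 106 and 121 in proNeu2. Its higher level in proNeu2 (log2 0.32, SE 0.140, adjusted p = 0.0418) became log2 -0.11 with loess offsets and ended with DESeq2 (0.208), with total counts (0.191), with DESeq2 size factors (0.0609) and without cMoP replicate 1 (0.05004), cMoP replicate 2 (0.101) or proNeu2 replicate 2 (0.196). A region 26893 bp outside Ccne1 (chr7:38134383-38135054) had 6.99 and 10.03, 4.36 and 5.67, 2.83 and 1.36, and 1.22 and 0 CPM, and with 32 counts in cMoP and 2 in proNeu2 the ratio was 13.2 (95% exact counting interval 3.36 to 113, adjusted p = 2.61e-05). Cdk2, the kinase of these cyclins, had 68.3 and 61.2, 73.3 and 67.5, 85.7 and 82.7, and 97.3 and 77.7 CPM at the gene end that holds its printed promoter (chr10:128704187-128705650). It was higher in proNeu2 than in cMoP (log2 0.44, SE 0.155, adjusted p = 0.0119), which ended with DESeq2 (0.130), with total counts (0.0598), with loess offsets (0.825) and without cMoP replicate 2 (0.0719) or proNeu2 replicate 1 (0.213).

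Among the genes of kinase inhibitors, Cdkn2d was open at both ends of its gene and higher at both. Of 4 gene ends in this role 2 were higher in proNeu1 and 3 in proNeu2, with none lower (all gene ends, 33.1 and 40.3% higher). The region at chr9:21287583-21288639, shared with Kri1, had 66.1 and 61.8 CPM in cMoP, 67.5 and 52.2 in GMP-MoP, 101 and 114 in proNeu1 and 114 and 125 in proNeu2. It rose in proNeu1 (log2 0.75, SE 0.152, adjusted p = 1.44e-05) and in proNeu2 (log2 0.90, SE 0.148, adjusted p = 4.60e-08), and these calls were kept in each of 15 alternatives, loess offsets included. The region over the listed start (chr9:21290796-21291896) had 99.99 and 92.4, 98.8 and 88.4, 127 and 137, and 156 and 169 CPM and rose in proNeu2 (log2 0.75, SE 0.132, adjusted p = 2.70e-07). Both proNeu2 libraries there lay above all others.

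Cdkn1a, the inhibitor gene induced by p53, had no region at a gene end, and its most open region, 1164 bp from a listed start (chr17:29094933-29096056), had 31.7 and 28.5 CPM in cMoP, 35.6 and 32.3 in GMP-MoP, 53.8 and 50.2 in proNeu1 and 57.8 and 59.1 in proNeu2. It rose in proNeu1 (log2 0.79, SE 0.201, adjusted p = 0.000595) and in proNeu2 (log2 0.95, SE 0.194, adjusted p = 8.21e-06), and no proNeu library overlapped with the rest. The most open region of Cdkn1b, the p27 gene, 1634 bp outside it (chr6:134927159-134929304), had 116 and 107, 115 and 101, 144 and 128, and 144 and 155 CPM. Its higher level in proNeu2 (log2 0.42, SE 0.131, adjusted p = 0.00378) turned to log2 -0.03 with loess offsets and ended with DESeq2 (0.0572). At the gene end of Cdkn2c (chr4:109665668-109667544), with 77.9 and 61.8, 87.9 and 66.9, 77.9 and 87.5, and 94.9 and 75.01 CPM, no pair passed.

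Genes of replication and nucleotide supply had 5 of 17 gene ends higher in proNeu1 than in cMoP and 10 in proNeu2, with none lower (all gene ends, 33.1 and 40.3% higher). Cdt1, which loads the MCM helicase on DNA, had a gene end (chr8:122567242-122568499) with 57.5 and 32.7 CPM in cMoP, 53.0 and 34.0 in GMP-MoP, 68.7 and 78.7 in proNeu1 and 79.7 and 79.7 in proNeu2. The first library of cMoP and of GMP-MoP was well above the second, yet none of the 4 reached a proNeu library. This gene end rose in proNeu2 against cMoP (log2 0.82, SE 0.172, adjusted p = 1.62e-05). A region 6223 bp outside Cdt1 (chr8:122561161-122561792) had 9.68 and 17.4, 2.90 and 7.37, 3.54 and 2.03, and 1.22 and 4.65 CPM and fell in proNeu1 (log2 -2.26, SE 0.493, adjusted p = 5.04e-05) and proNeu2 (log2 -2.22, SE 0.476, adjusted p = 2.51e-05).

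Cdc6, the other loader of the helicase, had a region in its body (chr11:98917439-98918979) with 29.0 and 31.1 CPM in cMoP, 44.3 and 41.4 in GMP-MoP, 46.7 and 65.8 in proNeu1 and 64.5 and 56.4 in proNeu2. It rose in proNeu1 (log2 0.91, SE 0.199, adjusted p = 5.72e-05) and in proNeu2 (log2 1.01, SE 0.193, adjusted p = 2.37e-06). Both GMP-MoP libraries lay between cMoP and the proNeu libraries, and their difference from cMoP did not pass (log2 0.50, adjusted p = 0.142). The helicase subunit gene Mcm2, with CHR letters in its printed promoter, had 28.0 and 24.3, 32.7 and 24.9, 42.5 and 42.0, and 55.9 and 43.8 CPM at its gene end (chr6:88898312-88899249) and rose in proNeu2 (log2 0.94, SE 0.206, adjusted p = 3.91e-05).

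The sliding clamp gene Pcna had the most open gene end of this role (chr2:132252272-132253820), with 112 and 96.6 CPM in cMoP, 107 and 98.6 in GMP-MoP, 139 and 131 in proNeu1 and 146 and 133 in proNeu2. Its higher level in proNeu2 (log2 0.42, SE 0.133, adjusted p = 0.00502) turned to log2 -0.03 with loess offsets and ended with DESeq2 (0.0688) and without cMoP replicate 2 (0.0675) or proNeu2 replicate 1 (0.0550). The Mcm5 gene end (chr8:75108420-75110032) had 62.9 and 67.0, 76.97 and 78.2, 77.2 and 74.6, and 93.0 and 77.7 CPM. Its call in proNeu2 (log2 0.40, SE 0.155, adjusted p = 0.0239) came to log2 -0.00047 with loess offsets and ended with DESeq2 (0.174), with total counts (0.109) and without cMoP replicate 1 (0.0740) or proNeu2 replicate 1 (0.221). Tested regions of the helicase genes Mcm3 and Mcm6, the thymidylate synthase gene Tyms and the checkpoint kinase gene Chek1 passed in no pair.

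Mitotic kinases, cyclins and regulators had 7 of 13 gene ends higher in proNeu1 than in cMoP and 7 in proNeu2, with none lower (all gene ends, 33.1 and 40.3% higher). Birc5, which encodes survivin of the chromosomal passenger complex, had 45.2 and 40.1 CPM in cMoP, 42.8 and 43.7 in GMP-MoP, 64.4 and 65.1 in proNeu1 and 84.5 and 76.3 in proNeu2 (chr11:117848384-117849804). It rose in proNeu2 against cMoP (log2 0.92, SE 0.170, adjusted p = 1.10e-06), and GMP-MoP was lower than proNeu2 (log2 -0.89, SE 0.176, adjusted p = 1.03e-05). The gene end of the mitotic cyclin Ccnb1 (chr13:100785936-100787169) had 41.9 and 50.1, 51.6 and 46.5, 66.6 and 63.8, and 82.7 and 76.3 CPM and rose in proNeu2 (log2 0.79, SE 0.168, adjusted p = 2.22e-05). At both genes the proNeu1 libraries lay between proNeu2 and the other groups, with no overlap.

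Wee1, the kinase that holds Cdk1 inactive, had the most open gene end of this role (chr7:110121285-110123466), with 98.9 and 103 CPM in cMoP, 109.6 and 96.9 in GMP-MoP, 146 and 155 in proNeu1 and 169.6 and 169.9 in proNeu2. It rose in proNeu2 (log2 0.75, SE 0.130, adjusted p = 1.93e-07). A region 22645 bp outside Wee1 (chr7:110165944-110166722) had 11.3 and 13.2, 5.81 and 5.67, 1.42 and 2.03, and 1.22 and 2.66 CPM, the cMoP libraries above all others, and fell in proNeu1 (log2 -2.77, SE 0.564, adjusted p = 1.42e-05) and proNeu2 (log2 -2.64, SE 0.537, adjusted p = 8.87e-06). The body region of Cdc25b, whose phosphatase activates Cdk1 (chr2:131196287-131197483), had 9.14 and 12.1, 14.5 and 14.2, 22.7 and 16.3, and 26.8 and 33.2 CPM and rose in proNeu2 (log2 1.48, SE 0.281, adjusted p = 1.96e-06).

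The mitotic kinase gene Aurka, at an end shared with Cstf1 (chr2:172370054-172371378), had 75.3 and 57.5 CPM in cMoP, 81.3 and 64.1 in GMP-MoP, 99.9 and 82.7 in proNeu1 and 91.8 and 88.3 in proNeu2. It was higher in proNeu2 than in cMoP (log2 0.44, SE 0.155, adjusted p = 0.0111), a call that ended with DESeq2 (0.138), with total counts (0.0564), with loess offsets (0.832) and without cMoP replicate 2 (0.185). Cdk1 itself (chr10:69352250-69353515) had 66.1 and 64.9, 69.7 and 56.7, 76.5 and 69.2, and 69.3 and 73.0 CPM and passed in no pair, as did the tested regions of the kinase gene Plk1, the cyclin gene Ccna2 and the spindle checkpoint gene Bub1b.

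Of the proliferation markers and structural genes, 3 of 6 gene ends were higher in proNeu1 than in cMoP and 4 in proNeu2, with none lower (all gene ends, 33.1 and 40.3% higher). Stmn1 encodes stathmin, which destabilises microtubules. The region 6721 bp outside it (chr4:134480564-134481626) had 4.30 and 3.17 CPM in cMoP, 13.8 and 9.07 in GMP-MoP, 48.2 and 31.9 in proNeu1 and 68.1 and 71.0 in proNeu2. The 4 groups did not overlap, and the level rose in proNeu1 (log2 3.39, SE 0.333, adjusted p = 1.69e-18) and in proNeu2 (log2 4.19, SE 0.292, adjusted p = 8.44e-33) against cMoP. The Stmn1 gene end (chr4:134467849-134469569) had 58.1 and 43.8, 62.4 and 45.9, 89.2 and 90.2, and 119 and 98.9 CPM and rose in proNeu2 (log2 1.10, SE 0.157, adjusted p = 3.15e-10). Of the 5 Stmn1 regions, all tested, 3 were higher in proNeu1 and 4 in proNeu2.

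Cenpe, a kinesin of the kinetochore, showed the opposite. The region 19991 bp outside it (chr3:135191792-135192572) had 42.5 and 39.1 CPM in cMoP, 24.7 and 26.6 in GMP-MoP, 1.42 and 3.39 in proNeu1 and 3.04 and 3.32 in proNeu2. It fell in proNeu1 (log2 -4.03, SE 0.382, adjusted p = 1.58e-19) and in proNeu2 (log2 -3.65, SE 0.351, adjusted p = 1.27e-19) against cMoP, and GMP-MoP was higher than proNeu1 (log2 3.37, SE 0.432, adjusted p = 9.21e-11). No library of the proNeu groups reached those of cMoP or GMP-MoP. The Cenpe gene end passed in no pair.

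Mki67, the gene of the Ki-67 antigen, had its most open region 18907 bp outside the gene (chr7:135735357-135736934), with 77.4 and 73.9 CPM in cMoP, 77.7 and 70.9 in GMP-MoP, 113 and 101 in proNeu1 and 114 and 109 in proNeu2. It was higher in proNeu2 (log2 0.56, SE 0.145, adjusted p = 0.000516), a call that ended with loess offsets (0.376). Its gene end (chr7:135715788-135717174) had 78.5 and 79.2, 84.2 and 62.4, 108 and 95.6, and 109 and 95.6 CPM, and the higher level in proNeu2 (log2 0.38, SE 0.147, adjusted p = 0.0212) turned to log2 -0.03 with loess offsets and ended with DESeq2 (0.178), with total counts (0.104) and without proNeu2 replicate 1 (0.158). At both, the proNeu libraries lay above the rest. The gene end of Top2a (chr11:99023686-99024840), with 4 CHR matches in the printed stretch and named after its values were seen, had 37.6 and 33.8, 48.6 and 34.0, 63.0 and 42.7, and 76.6 and 52.4 CPM and rose in proNeu2 (log2 0.86, SE 0.187, adjusted p = 2.98e-05).

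**Figure D3:**
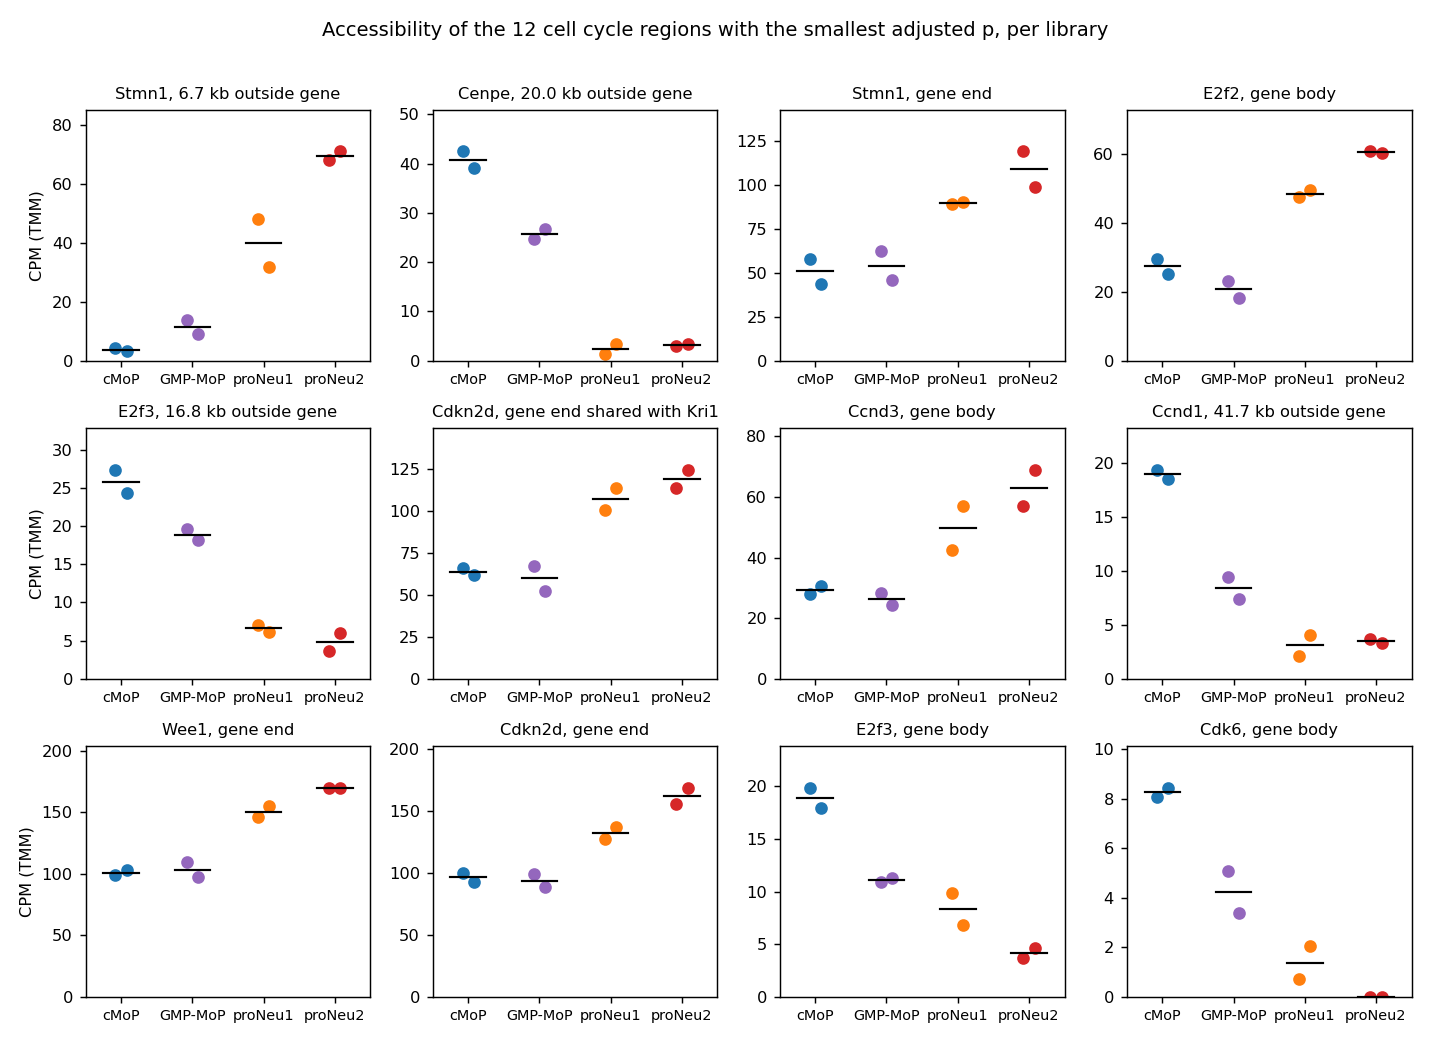
CPM per library (points) and group mean (line) on the y axis for the 12 cell cycle regions with the smallest adjusted p, with the 4 groups on the x axis. The Stmn1 region outside the gene climbs from 3.17 to 71.0 CPM across the libraries, and the Cenpe, E2f3, Ccnd1 and Cdk6 regions are lowest in the proNeu groups.

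**Figure D4:**
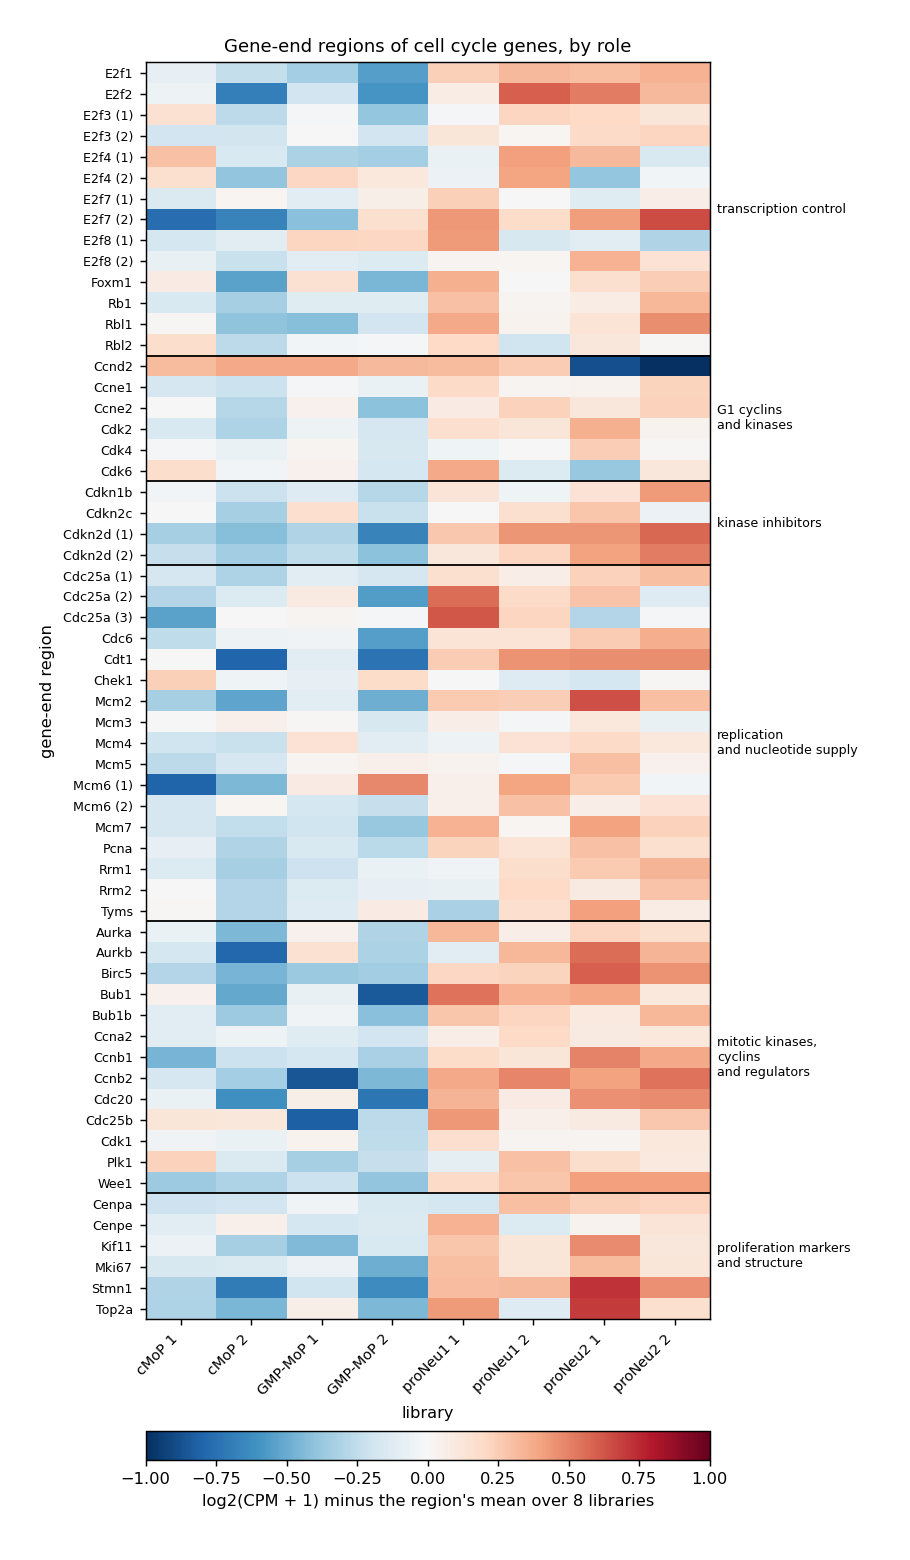
Heat map with a row for each tested gene-end region (60 in all), ordered by role, and a column for each library; colour gives log2(CPM + 1) minus the region's mean over the 8 libraries. With TMM scaling, at 49 of the 60 both cMoP and GMP-MoP have lower means than both proNeu groups (81.7%, beside 57.4% of all gene ends; with loess offsets 40.0 and 41.5%), and the Ccnd2 row is low in proNeu2 alone.

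Next, GMP-MoP was set against cMoP. Few regions of the cell cycle genes passed: of 60 gene ends 0 were higher and 0 lower, against 0.824 and 0.957% of all gene ends, and the median log2 difference was -0.00049. At an unadjusted p under 0.05 there were 3 gene ends, beside 1178 of all 12016, and with DESeq2 there were 0 called. Of 101 distal regions 1 was higher and 2 lower, against 2.37 and 4.32%. The higher one was the Stmn1 region outside the gene (log2 1.56, SE 0.440, adjusted p = 0.0149). The lower ones were the region outside Ccnd1 (log2 -1.18, SE 0.342, adjusted p = 0.0184) and that outside Cdt1 (log2 -1.32, SE 0.411, adjusted p = 0.0326).

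None of these 3 calls was kept in every alternative. That of Stmn1 ended with DESeq2 (0.407) and without cMoP replicate 1 (0.0527), cMoP replicate 2 (0.165) or GMP-MoP replicate 1 (0.223). The call of Ccnd1 ended with DESeq2 (0.812) and without cMoP replicate 1 (0.118), cMoP replicate 2 (0.110), GMP-MoP replicate 1 (0.0620) or GMP-MoP replicate 2 (0.257). The call of Cdt1 ended with DESeq2 (0.892) and without cMoP replicate 2 (0.562) or GMP-MoP replicate 1 (0.364).

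Against proNeu1, the group it is said to derive from, GMP-MoP had 0 gene ends higher and 16 lower, against 4.49 and 23.8% of all gene ends, and a median log2 difference of -0.34, beside -0.25 for all. No cell cycle gene end was higher at an unadjusted p under 0.05, beside 897 of all 12016 gene ends, and none was with DESeq2. Against proNeu2, 1 was higher, that of Ccnd2 (log2 1.38, SE 0.269, adjusted p = 8.02e-06), and 26 were lower, against 10.5 and 33.9%. With loess offsets the counts were 0 and 7, and 3 and 11. Distal regions had 9 higher and 12 lower against proNeu1, beside 14.0 and 8.60% of all distal regions, and 16 higher and 18 lower against proNeu2, beside 23.2 and 14.2%. Scaling to total counts turned these to 12 and 7, and to 19 and 12, and loess offsets turned the second to 7 and 12. Total counts also moved the median log2 difference of all tested regions, by 0.130 against proNeu1 and 0.154 against proNeu2. Shares of all gene ends and distal regions with these scalings are not given here, so the turns are not read as particular to cell cycle genes. Without GMP-MoP replicate 2, 14 instead of 37 cell cycle regions were called against proNeu1, and 34 instead of 61 against proNeu2. These comparisons share libraries with those above.

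By the fitted log2 differences, GMP-MoP was nearer to cMoP than to proNeu1 at 51 of the 60 gene ends (beside 8646 of all 12016 gene ends) and at 64 of the 101 distal regions (63.4%, beside 63.0%). With loess offsets it was so at 33 gene ends (55.0%, beside 66.9%) and 60 distal regions (59.4%, beside 62.0%), so that the gene ends lay above the share of all gene ends with one scaling and below it with the other. GMP-MoP lay between cMoP and proNeu1 at 27 gene ends (beside 53.9% of all gene ends) and 58 distal regions (beside 58.5% of all distal regions). These differences share the GMP-MoP, cMoP and proNeu1 libraries and carry no test. At the gene ends of Birc5, Wee1 and Cdkn2d the levels of GMP-MoP and cMoP overlapped, and at the regions outside Stmn1, Cenpe, Ccnd1 and E2f3 they did not.

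The last comparison was that of proNeu2 with proNeu1. At gene ends 0 regions were higher in proNeu2 and 1 lower, that of Ccnd2, against 0.0166 and 0.0999% of all gene ends. At an unadjusted p under 0.05, 1 was higher and 1 lower, beside 578 and 524 of all 12016 gene ends, and with DESeq2 0 were higher. Among distal regions 1 was higher and 0 lower, against 0.00564 and 0.0564%. At an unadjusted p under 0.05, 4 were higher and 3 lower, beside 1372 and 1974 of all 35490 distal regions, and with DESeq2 0 were lower. The distal region called higher was again the Stmn1 region outside the gene (log2 0.80, SE 0.191, adjusted p = 0.0462). It ended with DESeq2 (1.00), with total counts (0.0556), with the proNeu2 libraries summed (0.103) and without proNeu1 replicate 2 (0.426), proNeu2 replicate 1 (0.295) or proNeu2 replicate 2 (0.319).

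Several genes were higher at some regions and lower at others. Against cMoP this held for 9 genes in proNeu1 and 8 in proNeu2, and 7 of the 8, namely Ccne1, Cdc25a, Cdt1, E2f3, E2f8, Rb1 and Wee1, had a gene end higher and a distal region lower in proNeu2. These are 7 of the 25 members with a tested region of both classes (28.0%), beside 14.7% of 6615 protein-coding genes, and genes with more regions have more chances to show it. With total counts 4 of the 25 did (beside 11.9% of all), and with loess offsets 2 did, Cdt1 and Wee1 (beside 5.70% of all). A further 28 genes had calls on the higher side only, and 3 on the lower side only, Ccnd1, Ccnd2 and Cenpe. The other 16 genes had no call in proNeu2, among them Cdk1, Cdk4, Plk1, Ccna2, Foxm1, Chek1, Tyms and Mcm6. Except for the genes with a higher end and a lower distal region, these counts by gene have no share of all protein-coding genes beside them. Of all gene ends, 40.3% were higher in proNeu2 than in cMoP, so many genes with higher calls only are not read as particular to the cell cycle.

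**Figure D5:**
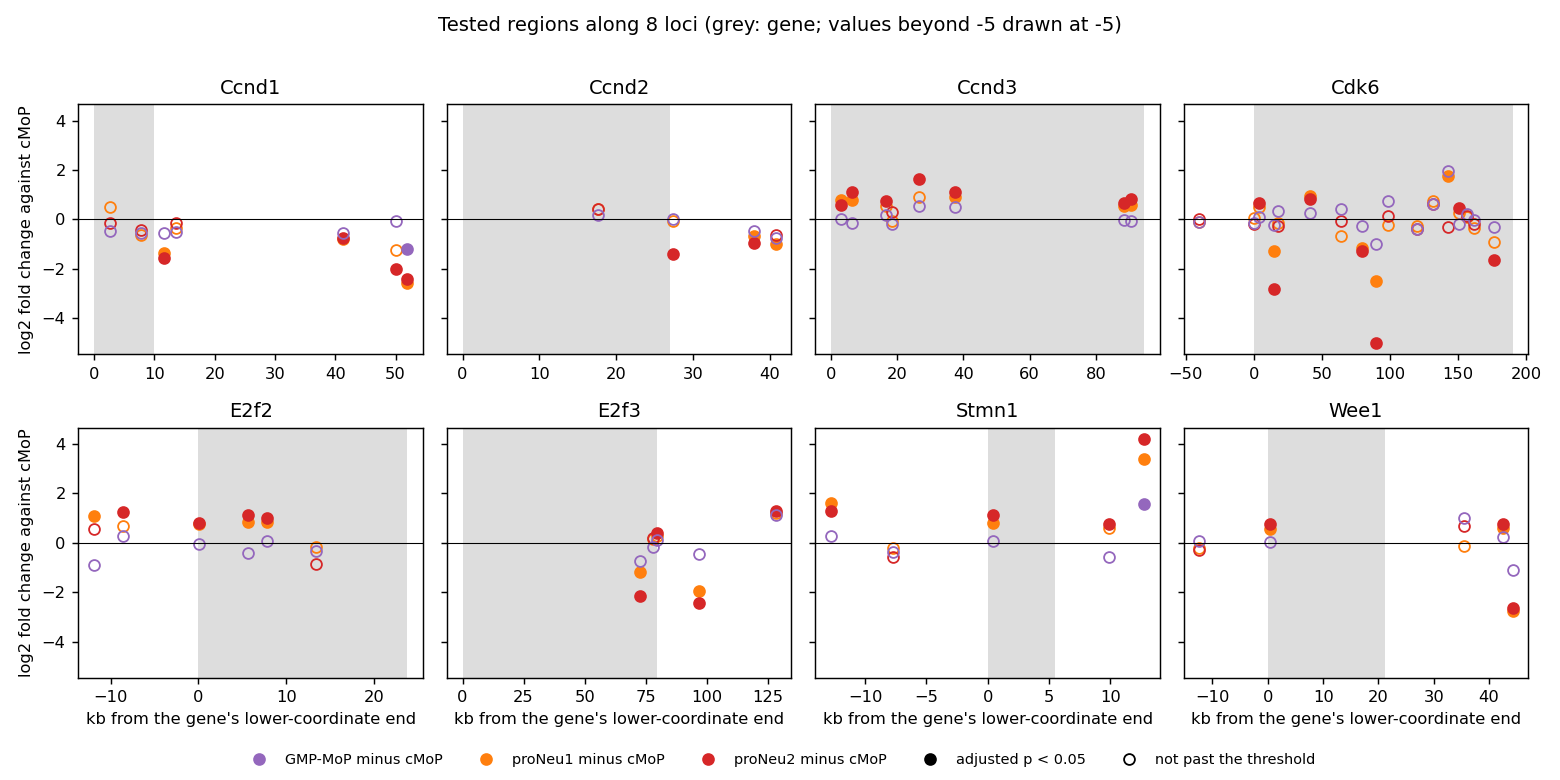
Log2 fold change against cMoP (y axis) of every tested region at 8 loci, by the distance of its centre in kb from the lower-coordinate end of the gene (x axis), with the gene in grey; filled points have an adjusted p under 0.05. Called regions of Ccnd3 and E2f2 are higher in the proNeu groups and those of Ccnd1 lower, and Cdk6 and Wee1 have both; a Cdk6 point with no proNeu2 counts is drawn at the lower edge.

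Other genes of the cycle, 72 on a list of further regulators and enzymes, had 151 regions at 71 genes, of which 136 were tested. At their 73 gene ends against cMoP 22 rose and 1 fell in proNeu1, 34 and 4 in proNeu2, and 0 and 1 in GMP-MoP, with median log2 differences of 0.31, 0.34 and 0.07. As shares, 30.1% were higher in proNeu1 and 46.6% in proNeu2, beside 33.1 and 40.3% of all gene ends. At their 63 distal regions 9 were higher and 17 lower in proNeu1, 14 and 16 in proNeu2, and 3 and 2 in GMP-MoP. The shares in proNeu1, 14.3% higher and 27.0% lower, were near the 16.3 and 26.4% of all distal regions, and those in proNeu2 were 22.2 and 25.4%, beside 20.2 and 32.1%. The 5 regions of smallest adjusted p lay at Gins1, a subunit gene of the replicative helicase, the cyclin F gene Ccnf, the polymerase gene Pold1, Incenp of the passenger complex and the checkpoint kinase gene Atm.

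The Gins1 region in the gene body (chr2:150921302-150922513) had 31.7 and 30.1 CPM in cMoP, 26.1 and 27.8 in GMP-MoP, 7.08 and 2.71 in proNeu1 and 3.04 and 2.66 in proNeu2, and it fell in proNeu2 against cMoP (log2 -3.40, adjusted p = 3.85e-15). The 4 proNeu libraries lay below the 4 others. The region 430 bp beyond the far end of Atm (chr9:53435518-53436692) had 14.5 and 12.7, 3.63 and 3.40, 2.12 and 2.71, and 0.608 and 0.664 CPM. It was the gene end of this list that was lower in GMP-MoP than in cMoP (log2 -1.93, adjusted p = 0.00287), a call that ended with DESeq2 (0.562) and without cMoP replicate 1 (0.0910) or GMP-MoP replicate 2 (0.0761). The gene ends of Ccnf (log2 1.00, adjusted p = 1.02e-09) and Pold1 (log2 1.09, adjusted p = 5.58e-10) and the region outside Incenp (log2 1.74, adjusted p = 7.98e-09) rose in proNeu2 against cMoP.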

How the data were processed

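Progenitor cells of 4 sorted groups, 2 libraries each, were profiled by ATAC-seq. The deposited files hold whole-number read counts for the same 61196 regions in each library. Per the submitters' processing notes, the tools were HOMER 4.11, Bowtie2 2.3.5.1 and edgeR 3.32.1, on the mm10 build, with no role or order stated. For the Tn5 shift, duplicates and whether regions were called on pooled libraries, the sources used here give nothing, and another choice would move counts at all regions. Totals count reads in these regions alone, so total sequencing depth is unknown.

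Regions were linked to the nearest RefSeq protein-coding gene interval within 50 kb (53906 regions, 88.1%), and where several genes were equally near each was kept. The members, their role groups, the further cell cycle genes and the marker lists were chosen with earlier results of these data known.

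The deposited counts were fitted with edgeR 4.0.16 under R 4.3.3, with TMM scaling, filterByExpr at a minimum count of 10 and robust quasi-likelihood estimation, all 8 libraries entering together and each group having its own mean. This kept 47506 regions. Benjamini-Hochberg adjustment ran over all of them, and calls were made under 0.05. Standard errors were derived from each fold change and its F statistic. The procedure was first run on simulated counts with a common dispersion and no shift of gene ends against distal regions. That run therefore cannot tell how the scaling affects the calls. Where a group had no counts, the fold was bounded with 3 counts for the group. Intervals and floors cover counting error only, since PCR reads are not independent molecules. Tables and motif searches were made in Python 3.11.15 with pandas 2.3.3.

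Named regions were the 25 of smallest adjusted p over the 6 pairs, the most open gene end of each role group and the most open region of set key genes, 43 in all. Gene ends were classed by distance to either end of the gene because the gene table has no strand, and 42 gene-end regions lay over a listed start. Printed promoters leave out the 50 transcribed bases of each 300-base window.

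Deviations of equally numbered libraries from their group means correlated at -0.011 to 0.079 across the 6 pairs of groups. Such weak correlations cannot tell whether equal numbers share an animal or day, which the labels do not state. In every group replicate 1 had the larger share of counts at gene ends. Alternatives were DESeq2 1.42.0, its size factors in edgeR, total counts, loess offsets (after adding 0.5 counts), no filter, a replicate block, links within 10 kb, each library left out and, chosen after seeing the data, the proNeu2 libraries summed as 1 and 1 gene per region.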

Additional observations from a re-analysis of the deposited data

How the results depend on the processing

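The number of cell cycle regions called under an adjusted p of 0.05 was 64 for proNeu1 against cMoP, 81 for proNeu2 against cMoP, 3 for GMP-MoP against cMoP, 37 for GMP-MoP against proNeu1, 61 for GMP-MoP against proNeu2, 2 for proNeu2 against proNeu1 and 79 for any difference. The DESeq2 test gave 17, 37, 0, 8, 23, 0 and 35 in that order. Loess offsets gave 21 and 33 for GMP-MoP against proNeu1 and proNeu2. For proNeu2 against proNeu1, total counts and the summed proNeu2 libraries each gave 1. Leaving out 1 library gave 35 to 71, 57 to 88, 0 to 3, 14 to 37, 34 to 65, 0 to 2 and 65 to 83. The lowest counts came without cMoP replicate 2 for both proNeu groups against cMoP (35 and 57) and without GMP-MoP replicate 2 for GMP-MoP against proNeu1 (14) and proNeu2 (34). A replicate block gave 64, 86, 4, 38, 65, 2 and 80. Shares of all regions with the same alternatives do not stand beside these counts. Equal replicate numbers carry no stated pairing, and among the named calls the block ended 1, that of the region outside Wee1 for GMP-MoP against proNeu2 (adjusted p = 0.0516, from 0.0476). Of 125 calls at named regions, 58 were kept in every alternative, 72 without each library in turn, 66 with DESeq2, 75 with loess offsets and 120 with the proNeu2 libraries summed. With loess offsets the log2 difference of 9 named calls changed sign: proNeu1 against cMoP at the gene ends of Mki67 (-0.0151) and Pcna (-0.0483), proNeu2 against cMoP at those of Ccne1 (-0.108), E2f8 (-0.0640), Mcm5 (-0.000466), Mki67 (-0.0337) and Pcna (-0.0277) and at the Cdkn1b region (-0.0290), and GMP-MoP against proNeu2 at E2f8 (0.00808). Total counts moved the median log2 difference of all tested regions by -0.13 to 0.15. At a median of 10.7 CPM, the distal regions rest on few counts, and the cause of the differences between scalings was not tested.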
